A study of Danio rerio with 6 samples.

Results

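The baseline transcriptome of the regenerating larval zebrafish tail fin was described from the 3 control libraries of the series, out of 6 libraries in all. The members were the libraries whose labels name them controls, and the 3 rapamycin libraries were not used. Each library was made from the regenerated tail fins of 50 larvae, pooled, 24 h after amputation at 3 dpf. The larvae were labelled WT and were kept in DMSO, the solvent of the drug, which was renewed every day from 2 dpf onwards. The study collected the libraries to ask how inhibition of *mTOR*, a kinase that couples growth to nutrients, alters regeneration. The control group was described here on its own, as 3 biological replicates named pools 1, 2 and 3. With a single group there was nothing to test, so values are given with their spread over the pools and without p-values.

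The fin fold of a zebrafish larva is a thin sheet. Its outside is a layered epidermis held together by keratin filaments and tight junctions, and its inside is a sparse mesenchyme that lays down collagen and actinotrichia, the stiff fibres built from collagens and actinodins. After amputation the wound is covered by epidermis, immediate early genes such as those of the Fos and Jun families are switched on, phagocytes gather at the wound, and cells near the stump proliferate as a blastema whose cells express *msx* genes. In a pool of tissue, more cells of a type and more RNA per cell of that type cannot be told apart.

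The pools held 53963168, 53345118 and 49055607 counts over 32057 genes, 156363893 in all. Expression is given as CPM, a gene's count divided by the total of its pool and scaled to a total of 1000000. At this depth 3 counts correspond to 0.0556, 0.0562 and 0.0612 CPM in pools 1, 2 and 3, and to 0.0192 CPM over the 3 pools together, a floor that covers counting error only. Libraries of this kind give more reads for long transcripts, and no transcript length was used, so CPM ranks genes by their share of the reads and not by their number of molecules. A count was found in every pool for 19700 genes and in no pool for 7825. At least 1 CPM in every pool was reached by 14705 genes, at least 10 CPM by 8064, at least 100 CPM by 1306 and at least 1000 CPM by 53.

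Pool 1 stood apart from the other pools. Over the 9232 genes with a mean of at least 10 CPM, Pearson's r of log2(CPM + 0.5) was 0.965 between pools 2 and 3, 0.923 between pools 1 and 2 and 0.895 between pools 1 and 3. These correlations are across genes, which share a library and are not replicates. A difference of at least 2-fold between pools 2 and 3 was found in 304 genes, against 912 between pools 1 and 2 and 1477 between pools 1 and 3. Pool 1 also needed the most genes for a given share of its counts, with 466 genes holding 50% of them, against 392 in pool 2 and 298 in pool 3. Counts of genes in which pool 1 was apart are therefore also given without it.

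The few genes at the top took a large share of the counts. The highest gene held 3.86% ± 0.80 of the counts (SD, n = 3), the 4 highest 13.9% ± 2.6, the 10 highest 21.4% ± 2.3 and the 100 highest 36.0% ± 2.4. The 4 highest genes took 12.8%, 11.97% and 16.9% in pools 1, 2 and 3, the most in pool 3. For the 100 highest the shares were 34.2%, 35.2% and 38.7%. The 1000 highest genes held 63.4% ± 3.0, while 5855, 5038 and 4620 genes were needed for 90% of the counts of pools 1, 2 and 3.

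**Figure D1:**
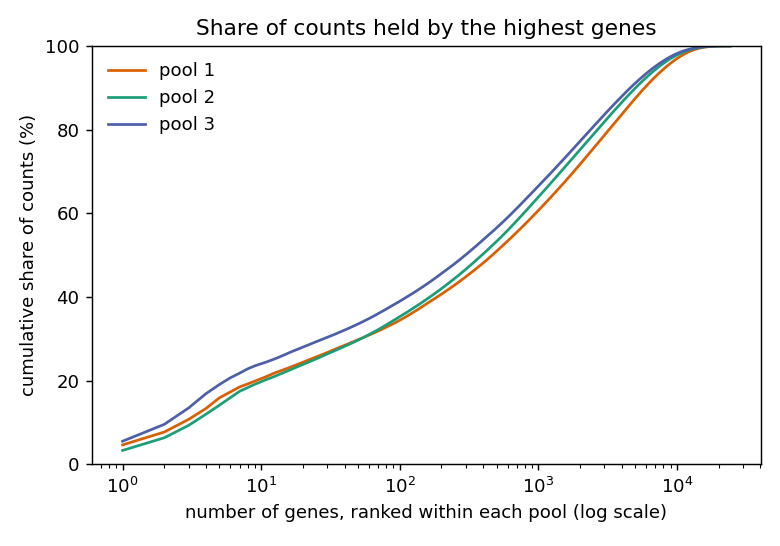
Cumulative share of the counts (%) against the number of genes on a log scale, with genes ranked within each pool and 1 line for each control pool. The line of pool 3 lies above the others, as its 298 genes for 50% of the counts show, and the line of pool 1, which needed 466 genes, is the lowest from about the middle of the range.

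The genes at the top were mainly those of fin matrix and epidermis. *col1a1a* (ENSDARG00000012405), which encodes a chain of type I collagen, had 46289, 30267 and 39266 CPM in pools 1, 2 and 3. *and1* (ENSDARG00000088514) and *and2* (ENSDARG00000079302), which encode actinodins of the actinotrichia, held the places after it and after *krt4*. *and1* had 26077, 33050 and 55039 CPM, and *and2* had 25353, 26742 and 40364 CPM, so both were highest in pool 3, *and1* by 2.11-fold over pool 1 and *and2* by 1.59-fold. The keratin *krt4* (ENSDARG00000017624), a gene of the surface epidermis, was among the steadiest, with 30765, 29679 and 34099 CPM, a spread of 7.31% of its mean. The next place was taken by ENSDARG00000080337, which carries no symbol in the name table used, with 30324, 15396 and 10181 CPM and pool 1 the highest. It was followed by *apoeb*, which encodes the lipid carrier apolipoprotein E, with 12103, 21466 and 21880 CPM and pool 1 the lowest.

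Below these, the 30 highest genes fell into a few groups. The nuclear non-coding RNA *malat1* had 14005, 17874 and 16087 CPM. Epidermal genes were *krt97* (6695, 8861 and 11167 CPM), *cyt1*, *cyt1l* and *krt5*, the claudin gene *cldni*, which encodes a tight junction protein, and *AQP3* (ENSDARG00000003808), which encodes a water and glycerol channel. Genes of the actin cytoskeleton were *pfn1* (profilin), *actb1*, *actb2*, *tmsb4x*, which encodes an actin-sequestering peptide, and *myl12.1*, a light chain of non-muscle myosin. Matrix or secreted proteins were encoded by *sparc*, a collagen-binding protein, *OGN* (ENSDARG00000044132), a small proteoglycan, and *angptl7*. The mitochondrial genome contributed 3 subunits of cytochrome c oxidase, *MT-CO1*, *MT-CO2* and *MT-CO3*, and the nuclear genome *slc25a5*, which exchanges ADP and ATP across the inner membrane. The remaining places were held by the constitutive chaperone *HSPA8* (ENSDARG00000068992), the nucleic acid-binding protein *ybx1*, the elongation factor *eef1a1l1*, prothymosin *ptmab* and a gene that has only a clone name (ENSDARG00000109310).

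Among the 30 highest genes, 3 were at least 2-fold apart between the pools, *and1*, ENSDARG00000080337 and *OGN*, which had 2035, 3084 and 4430 CPM. Of the 100 highest, 10 were, against 18.7% of all genes with a mean of at least 10 CPM. The widest was ENSDARG00000082753, also without a symbol, with 2337, 486 and 202 CPM. The name table used gives neither ID a name, so no role is given here, and in both pool 1 was the highest. Neither could enter a list, since lists were matched by name. *AQP3*, *HSPA8* and *OGN* are each the name of 2 IDs in the table, and reads of near-identical copies may have been split between them.

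**Figure D2:**
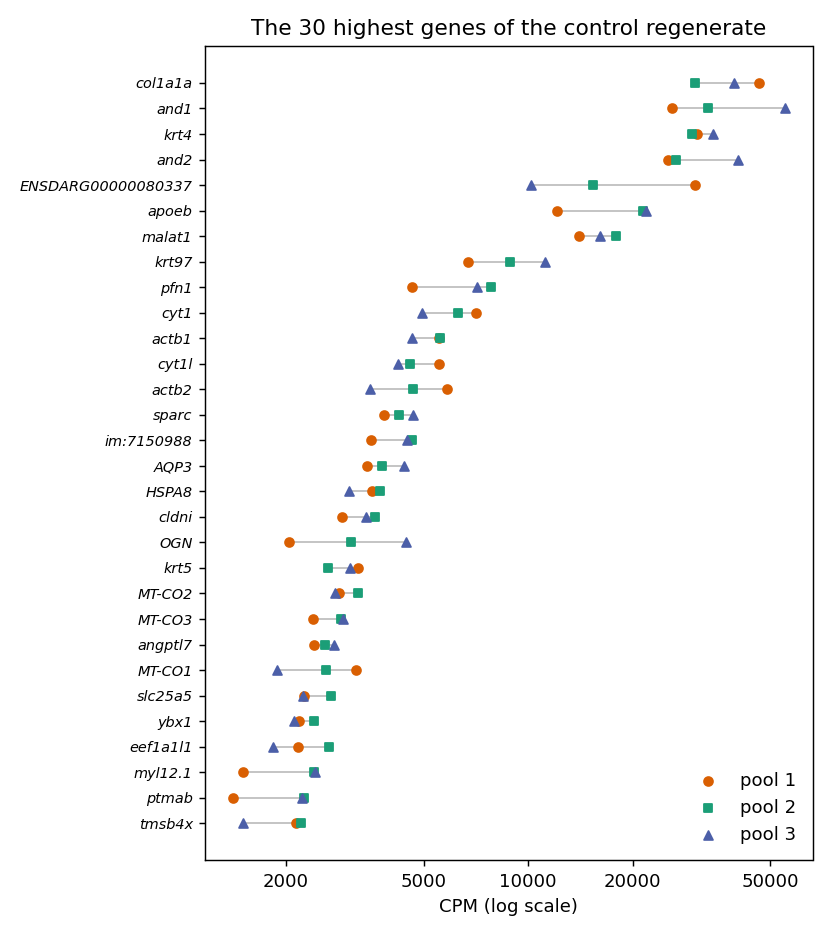
CPM on a log scale of the 30 genes with the highest mean over the control pools, 1 symbol and colour for each pool, with a line from the lowest to the highest pool. *krt4* stays between 29679 and 34099 CPM, whereas *and1* runs from 26077 to 55039 and ENSDARG00000080337 from 10181 to 30324.

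Counts were summed over lists of marker genes to give the share of each tissue's markers. The lists were chosen with earlier results of these data known, so the shares describe the pools and do not check the labelled tissue. Markers of fin fold mesenchyme took 5.71%, 6.57% and 10.18% of the counts in pools 1, 2 and 3, pan-epidermal markers 5.45%, 5.14% and 5.37%, and superficial epidermal markers, which share keratins with the former, 5.21%, 4.86% and 5.16%. These shares came largely from genes already named among the highest, *and1* and *and2* for mesenchyme and *krt4*, *cyt1* and *cyt1l* for epidermis. Markers of pancreas and gut, by contrast, reached a mean of 10 CPM in 0 of 20 genes, and 1 CPM in 2. Of all 32057 genes, 9232 reached a mean of 10 CPM and 16197 a mean of 1 CPM. Of the 31 eye markers 3 reached 1 CPM, and nearly all of the eye share of 0.0160%, 0.0166% and 0.0137% came from 1 retinoid isomerase gene, *RPE65* (ENSDARG00000094752), with 149, 153 and 120 CPM. Markers of muscle, heart, nerve, cartilage, lateral line and blood took at most 0.283% of the counts each.

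**Figure D3:**
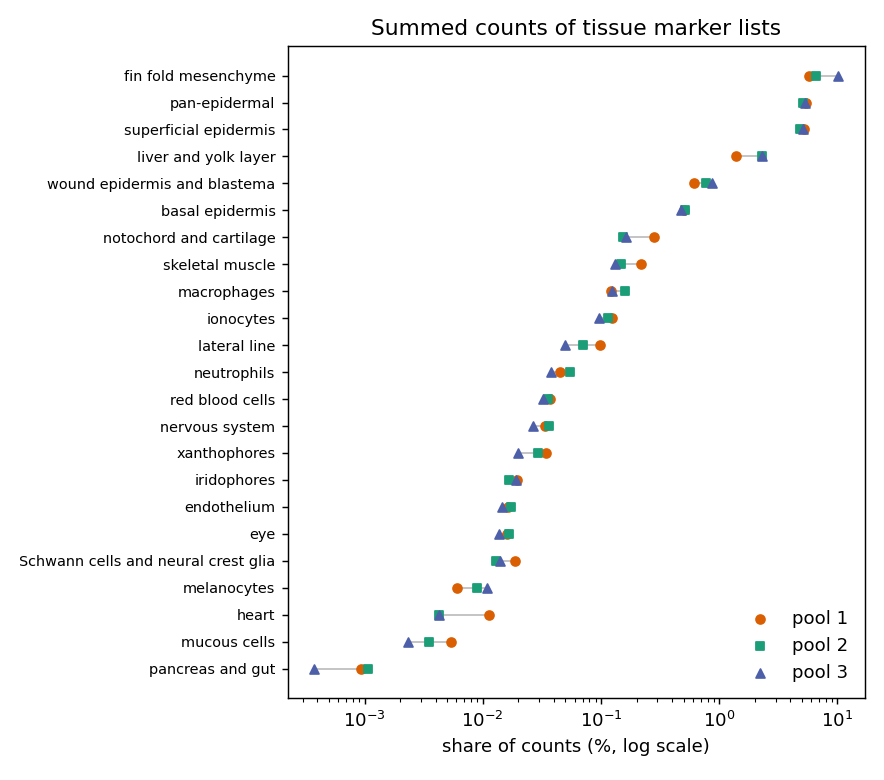
Share of counts (%, log scale) taken by the summed markers of each tissue list in each control pool. Fin fold mesenchyme and the epidermal lists lie between 4.86% and 10.18% (basal epidermis at most 0.513%), and the list of pancreas and gut is the lowest.

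Fin fold mesenchyme was dominated by the actinodins. Besides *and1* and *and2*, *and3* had 1380, 1331 and 1639 CPM, and *hapln1a*, which encodes a linker of hyaluronan and proteoglycans, had 726, 401 and 437 CPM. Homeobox genes of the *msx* family, markers of blastema and distal fin mesenchyme, were clearly expressed. *msx2b* had 277, 589 and 469 CPM, *msx3* 271, 446 and 598 CPM and *msx1b* 138, 220 and 187 CPM, and each was lowest in pool 1. *hoxa13a*, *hoxa13b* and *HOXB13* (ENSDARG00000056015), members of the hox groups that pattern the posterior end and the distal fin, were also lowest in pool 1, with *hoxa13a* at 155, 236 and 289 CPM. Of the 26 members of the list with a mean of at least 10 CPM, 5 were at least 2-fold apart, a share close to that of all genes. *pdgfra*, the gene of a growth factor receptor of mesenchyme, ran the other way from the *msx* genes with 90.7, 32.3 and 24.5 CPM.

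The markers of wound epidermis and blastema took 0.612%, 0.775% and 0.867% of the counts. *mvp*, the gene of the major vault protein, had 724, 1155 and 1632 CPM, and *MDK* (ENSDARG00000036036), which encodes the growth factor midkine, had 980, 1334 and 1098 CPM. The transcription factor *sp9*, a gene of the apical epidermis of growing fins and limbs, had 398, 541 and 660 CPM. Among signals, *fgf24* had 118, 165 and 221 CPM, *FGF20* (ENSDARG00000007356) 17.9, 22.7 and 29.3 CPM, and the Wnt antagonist *dkk1b* 70.0, 96.6 and 107 CPM. These 3 signals and *sp9* were all lowest in pool 1 and highest in pool 3. The Wnt genes of the list ran the other way and were highest in pool 1, with *wnt5b* at 77.1, 32.3 and 36.6 CPM and *wnt5a* at 54.0, 39.2 and 43.7 CPM, as was *lef1*, a transcription factor of the Wnt pathway, at 32.3, 15.8 and 13.4 CPM. *aldh1a2*, the enzyme that makes retinoic acid, had 68.8, 88.1 and 70.5 CPM. Of 30 members with at least 10 CPM, 11 were at least 2-fold apart, 36.7% against 18.7% of all genes. Pool 1 was apart and higher in 5 of the 30, among them both IDs named *FN1*, against 12.9% of all genes. Without pool 1, 2 of 29 were at least 2-fold apart, against 257 of 8739 of all genes.

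The genes on a list of those the study named were all detected. The list left out *ppp3ca*, a calcineurin gene that the study also measured. Besides *mvp* and *msx3*, the ribosomal protein gene *rps6*, whose protein is phosphorylated downstream of mTOR, had 446, 591 and 427 CPM, and *mtor* itself had 34.6, 17.4 and 13.6 CPM, 2.49-fold higher in pool 1 than in pool 3. The 2 IDs named *JUNB* had 306, 448 and 963 CPM (ENSDARG00000104773) and 162, 197 and 358 CPM (ENSDARG00000074378), and *ilf2* had 181, 253 and 180 CPM. *FN1* (ENSDARG00000006526), a gene of fibronectin, had 316, 132 and 87.9 CPM. The cyclins *ccnd1*, *ccna2* and *ccnb1* had means of 112, 49.4 and 24.8 CPM and the kinase *cdk1* 84.7 CPM, with at most 1.43-fold between pools. Among genes of mitochondrial function *dnm1l*, the fission GTPase, had 33.7, 41.0 and 37.1 CPM, and the means were 14.1 CPM for *mtfp1*, 11.4 for *primpol*, 8.06 for *cox6b1* and 4.63 for *mgme1*. Of the 16 members at 10 CPM or more, 7 were at least 2-fold apart, against 18.7% of all genes, and 1 of 15 was without pool 1, against 257 of 8739.

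The counts were also summed by lists of cell functions, which share genes with the tissue lists and with each other. Extracellular matrix other than collagens, a list that includes the actinodins, took 6.62%, 7.22% and 10.9% of the counts. Keratins took 6.10%, 5.96% and 6.41% of the counts and collagens 5.16%, 3.27% and 4.12%, of which *col1a1a* was the main part. The actin cytoskeleton took 3.25%, 3.56% and 3.12%, cytosolic ribosomal proteins 2.79%, 2.95% and 2.04%, and translation factors 1.44%, 1.56% and 1.26%. The 13 mitochondria-encoded genes found by name took 1.53%, 1.41% and 1.22%, and nuclear genes of the respiratory chain 1.17%, 1.59% and 1.33%. Of the ribosomal protein genes 85 had at least 10 CPM, and 56 of them were highest in pool 2, 29 in pool 1 and 0 in pool 3. Of all genes at this level 33.4% were highest in pool 2, 43.4% in pool 1 and 23.1% in pool 3. At least 2-fold apart were 3 of the 85, 2 of 95 genes of the respiratory chain and 0 of 55 genes of ubiquitin and the proteasome, against 18.7% of all genes. The range of the ribosomal protein genes named by level ran from *rpl3* with 1283, 1578 and 1214 CPM to *rpl19* with 951, 1161 and 892 CPM.

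Genes of proliferation were detected in every pool. For DNA replication *pcna*, the polymerase clamp, had 313, 345 and 244 CPM, and the helicase subunit *mcm2* had 99.6, 120 and 120 CPM. For mitosis *hmgb2* had 658, 1097 and 741 CPM and *plk1* 53.2, 75.5 and 65.1 CPM. Of 40 mitosis genes 4 were at least 2-fold apart, against 18.7% of all genes. In the same 4 of the 40 pool 1 was apart and higher, against 12.9% of all genes. Among them were *cenpf* and *mki67*, the latter with 98.8, 47.2 and 37.4 CPM. The mitosis list as a whole took 0.307%, 0.398% and 0.332% of the counts, the least in pool 1. Without pool 1, 0 of 41 mitosis genes were at least 2-fold apart, against 257 of 8739 of all genes. Glycolysis had 1 of 19 genes that far apart, *hk1*, and the heat shock proteins and chaperones 4 of 61, against 18.7% of all genes. Among the steadiest genes of the higher range, the polyubiquitin gene *ubb* (ENSDARG00000093313) had 520, 526 and 506 CPM and *tpm3*, a tropomyosin, had 980, 1037 and 974 CPM.

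The 3 pools differed beyond counting error throughout. Over the 9232 genes with a mean of at least 10 CPM the median coefficient of variation between pools was 19.4%, whereas counting error alone gave a median of 2.39% and at most 4.40%, and 9132 genes varied more than counting error. The highest pool was at least 2-fold over the lowest in 1722 genes, 18.7%, the ratio being taken on CPM + 0.5, and at least 4-fold in 248. Among the 1722 genes, the pool farthest from the middle one on the log2 scale was pool 1 in 1235 (71.7%), pool 3 in 405 (23.5%) and pool 2 in 82 (4.76%). Pool 1 was apart and higher in 1191 genes, 12.9% of all, and apart and lower in 44, 0.477%. Pool 2 was higher in 44, 0.477%, and lower in 38, 0.412%. Pool 3 was higher in 68, 0.737%, and lower in 337, 3.65%. The split depended on how the totals were scaled. Scaling by TMM, which sets the bulk of genes equal, gave factors of 1.11, 0.995 and 0.904 for pools 1, 2 and 3, so that pool 1 moved by 0.15 on the log2 scale against its CPM and pool 3 by as much in the opposite direction. It left 1476 genes, with pool 1 higher in 754 and lower in 249. Without pool 1, 257 of 8739 genes were at least 2-fold apart.

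Genes that differed between pools were more often long ones. A gene span, from the first to the last base of the gene in the RefSeq annotation of GRCz12tu, was found by symbol for 7059 of the 9232 genes (76.5%). Across these genes the deviation of a pool from the gene's mean correlated with the span at Spearman's rho of 0.40 in pool 1, -0.43 in pool 2 and -0.19 in pool 3. When the genes were split by span into 5 groups of equal size, 7.58% were at least 2-fold apart in the group with the shortest spans, 11.1% in the middle group and 35.1% in the group with the longest. The median of pool 1 against the mean of the other pools moved from -0.16 on the log2 scale in the shortest group to 0.52 in the longest. After the trend with span was removed in each pool, 938 of the 7059 genes were at least 2-fold apart, against 1187 of the same genes before, and pool 1 stood apart in 612, against 856. What lies behind the trend was not tested.

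**Figure D4:**
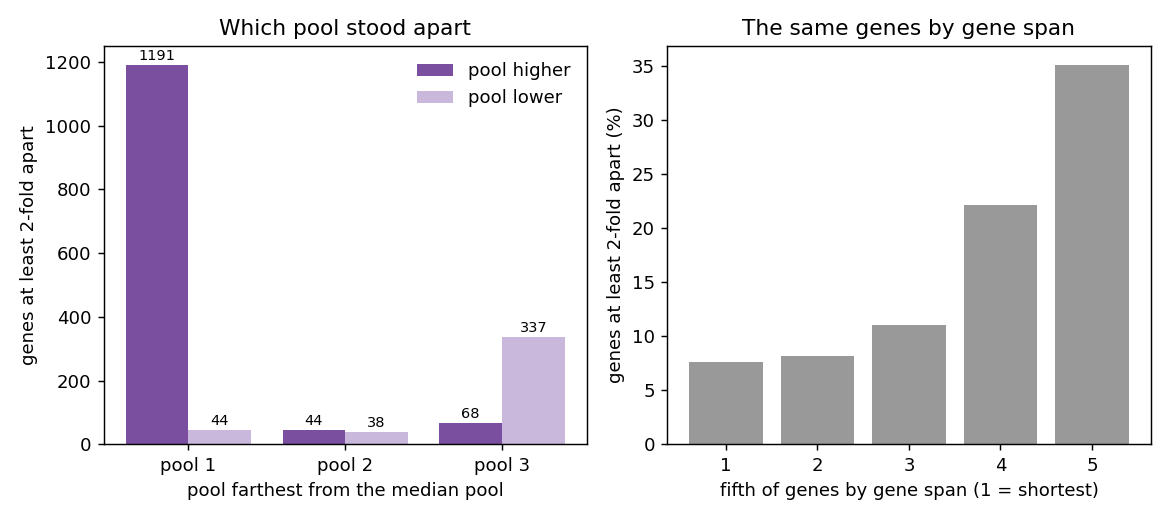
Left, number of genes at least 2-fold apart between the control pools, by the pool farthest from the middle one and by its direction. Right, percent of genes at least 2-fold apart in 5 groups of gene span, from 7.58% in the shortest to 35.1% in the longest, over the 7059 genes with a span.

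The 10 genes with the widest ratios and pool 1 apart were all higher in it. *SLIT1* (ENSDARG00000044954), which encodes an axon guidance ligand, had 43.7, 7.39 and 2.83 CPM, a 13.3-fold range. *PIEZO2* (ENSDARG00000076005), a mechanically gated ion channel of sensory cells, had 93.1, 20.4 and 6.77 CPM, and *atp1a3b*, a subunit of the sodium pump, had 28.5, 7.52 and 2.47 CPM. For *MYH9* (ENSDARG00000001014), a heavy chain of non-muscle myosin, pools 2 and 3 were alike with 14.7 and 13.5 CPM, against 123 CPM in pool 1, and the other ID of that name (ENSDARG00000063295) had 1120, 345 and 299 CPM. The transcriptional repressor *hic2*, the Wnt co-activator *bcl9*, *prrc2b*, *tasorb*, *FNDC7* and the receptor phosphatase *PTPRF* (ENSDARG00000103479) had ranges between 7.29-fold for *tasorb* and 8.84-fold for *hic2*. All 10 stayed at least 6.02-fold apart, with pool 1 apart, when scaled by TMM. With the trend with span removed, *atp1a3b*, *hic2*, *bcl9*, *prrc2b* and *tasorb* had ranges between 5.64-fold for *bcl9* and 9.78-fold for *hic2*. In these pool 1 was again the one apart. For *SLIT1*, *PIEZO2*, *MYH9*, *FNDC7* and *PTPRF* no span was found, so the trend could not be removed.

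Most collagen chains differed between the pools. Of 29 collagen chains with a mean of at least 10 CPM, 23 (79.3%) were at least 2-fold apart, against 18.7% of all genes. Pool 1 was apart and higher in 19 of the 29, against 12.9% of all genes. In 27 of the 29 pool 1 was the highest, as it was in 43.4% of all genes. *col17a1a*, which anchors basal keratinocytes, had 567, 154 and 153 CPM, and *COL2A1* (ENSDARG00000069093), the main collagen of cartilage and notochord, had 589, 165 and 165 CPM. *col11a1* and *col11a2*, also chains of cartilage fibrils, had 239, 71.5 and 44.5 CPM and 46.2, 7.37 and 6.58 CPM. The gene with the most counts, *col1a1a*, was not 2-fold apart, and its ratio was 1.53. Without pool 1, 4 of 28 collagens were at least 2-fold apart, against 257 of 8739 of all genes. With TMM 20 of 30 were, against 1476 of 9193 of all genes. Of the 21 collagens with a span, 16 were at least 2-fold apart, against 1187 of all 7059 genes with a span. After the trend with span was removed 13 of the 21 were, against 938 of the 7059.

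Other lists also held genes that were higher in pool 1. Of 17 markers of notochord and cartilage 11 were at least 2-fold apart, against 18.7% of all genes. Without pool 1, 1 of 16 was, against 257 of 8739 of all genes. In the same 11 of the 17 pool 1 was apart and higher, against 12.9% of all genes. Together the markers took 0.283%, 0.153% and 0.164% of the counts. Within this list *matn4* (matrilin 4) at 694, 659 and 786 CPM and *cnmd* (chondromodulin) at 110, 110 and 116 CPM were not higher in pool 1 by such a margin, *matn4* being highest in pool 3. Of 14 markers of basal epidermis 9 were at least 2-fold apart, against 18.7% of all genes. In 4 of the 14 pool 1 was apart and higher, against 12.9% of all genes, and in 1 lower, against 0.477%. In another 4 pool 3 was apart and lower, against 3.65% of all genes. With pool 1 left out, 2 of 14 were at least 2-fold apart, against 257 of 8739 of all genes. The integrin of this list, *itgb4*, had 87.1, 34.5 and 16.6 CPM, whereas *tp63*, the transcription factor of basal keratinocytes, had 339, 302 and 369 CPM. In muscle 6 of 20 markers were at least 2-fold apart, against 18.7% of all genes. In 5 of the 20 pool 1 was apart and higher, against 12.9% of all genes. With pool 1 left out, 0 of 16 were at least 2-fold apart, against 257 of 8739 of all genes. The heavy chain *smyhc1* had 558, 165 and 170 CPM, while *actc1b* had 240, 207 and 182 CPM and *tnnc1* 143, 129 and 124 CPM. In the lateral line *OTOF* (ENSDARG00000020581), a vesicle protein of hair cells, had 70.1, 19.9 and 13.1 CPM and *MYO6* (ENSDARG00000042141) 26.4, 6.45 and 4.02 CPM, while *pvalb8* had 813, 634 and 451 CPM. The desmosome gene *DSP* (ENSDARG00000076673), 1 of 2 IDs of that name, had 52.3, 13.05 and 8.30 CPM. *JUP* (ENSDARG00000070787), also of desmosomes, was among the steadiest genes with 667, 658 and 589 CPM. The basement membrane proteoglycan *hspg2* had 117, 35.3 and 21.3 CPM.

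Among pan-epidermal markers 2 of 17 were at least 2-fold apart, against 18.7% of all genes, the cadherin *cdh1* with 285, 134 and 144 CPM and the transcription factor *grhl1* with 56.8, 24.6 and 23.3 CPM. Of 18 superficial markers 3 were, *anxa1c*, *pvrl2l* and *ppl*. Keratins held 3 of 16 such genes, each with a different pattern. *krt99* was high in pool 3 with 35.4, 33.7 and 181 CPM, *krt91* was high in pool 1 with 757, 476 and 351 CPM, and *krt15* was low in pool 3 with 77.8, 60.3 and 36.7 CPM. *anxa1c*, the gene of an annexin of superficial cells, had 131, 220 and 500 CPM, and the claudin *cldn23.1* had 311, 431 and 754 CPM, so that both were high in pool 3 along with *krt99*. Cells that transport ions were represented by *RHCG* (an ammonia transporter), whose highest ID had 185, 202 and 82.3 CPM, and *ca2* (carbonic anhydrase) with 266, 134 and 110 CPM.

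In pool 3 a set of immediate early genes was high. Of 27 genes of the immediate early and AP-1 list with at least 10 CPM, 10 (37.0%) were at least 2-fold apart, against 18.7% of all genes. Pool 3 was apart and higher in 7 of the 27, against 0.737% of all genes. In 19 of the 27 pool 3 was the highest, as it was in 23.1% of all genes. *JUNB* (ENSDARG00000104773) had a 3.14-fold range, *btg2*, an anti-proliferative gene, had 63.9, 54.3 and 171 CPM, and *dusp1*, the gene of a phosphatase of MAP kinases, had 192, 116 and 340 CPM. *klf2a* had the widest range, with 143, 36.8 and 409 CPM, and there pool 2 was the one apart and lower, or pool 3 after scaling by TMM. *fos*, which no list held and which was chosen after its values were seen, had 121, 87.3 and 384 CPM. Not all genes of the class followed, since *egr1* had 65.4, 35.3 and 48.7 CPM and *atf3* 36.1, 31.0 and 25.7 CPM. Without pool 1, 7 of 27 were at least 2-fold apart, against 257 of 8739 of all genes.

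The other genes high in pool 3 were of mixed kinds. By the ratio rule they were *serpinb14*, of the family of serine protease inhibitors, with 4.95, 3.88 and 39.8 CPM, and *capn2l*, of the family of calpain proteases, with 25.4, 39.4 and 200 CPM. Chosen after their values were seen, *lox*, which cross-links collagen, had 298, 403 and 904 CPM and *scpp5*, of the family of secretory calcium-binding phosphoproteins, had 12.3, 19.7 and 87.6 CPM. The inflammatory gene *PTGS2*, a prostaglandin synthase, had 269, 349 and 584 CPM for its highest ID. In contrast *cxcl19* had 63.1, 82.1 and 18.7 CPM and *acod1* 38.9, 45.2 and 13.6 CPM. Of 16 members of the inflammation list 5 were at least 2-fold apart, against 18.7% of all genes. Pool 3 was apart and lower in 4 of the 16, against 3.65% of all genes, and apart and higher in 1, against 0.737%.

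Genes of the circadian clock were low in pool 3. *per2*, whose product represses the clock and which is induced by light in zebrafish, had the widest ratio of all the genes named, with 36.2, 84.9 and 4.91 CPM, 15.8-fold between pools 2 and 3. *PER1* (ENSDARG00000012499) had 85.1, 45.1 and 9.36 CPM, *per3* 18.5, 12.17 and 2.41 CPM, and *dbpb*, an output gene of the clock, 23.7, 11.5 and 2.39 CPM. The 4 genes shared their low pool but not their high one, which was pool 2 for *per2* and pool 1 for the rest. A list of clock genes was drawn up after these values had been seen, so its counts are a description that supports nothing. Of its 21 members with at least 10 CPM, 13 were at least 2-fold apart, against 18.7% of all genes. Pool 3 was apart and lower in 9 of the 21, against 3.65% of all genes. These included *tefa*, with 263, 447 and 145 CPM, *cry2*, *NR1D2* and both IDs named *CRY1*. The positive factor *BMAL1* (ENSDARG00000006791) had 40.6, 43.9 and 54.1 CPM and the kinase *csnk1d* 215, 199 and 186 CPM.

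Further genes were low in pool 3. *mxf*, of the family of interferon-induced Mx GTPases, had 61.3, 36.2 and 4.73 CPM, while its relative *mxc* was high in that pool, with 4.02, 5.06 and 29.3 CPM. A list of interferon response genes was also drawn up after seeing values, so its counts support nothing. Of its 6 members with at least 10 CPM, 2 were at least 2-fold apart, against 18.7% of all genes, 1 with pool 3 higher and 1 with pool 3 lower. *slc2a6* (a sugar transporter), *cdk13* (a kinase of transcription), *RC3H1* (ENSDARG00000062550, an RNA-binding protein) and *lonrf4* had ranges between 7.99-fold and 9.07-fold, with pool 3 the lowest.

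Pool 2 had the fewest genes of its own. *map3k14b*, which encodes a kinase of the non-canonical NF-kappa B pathway, had 16.2, 122 and 35.6 CPM. *xpc* and *ddb2*, which recognise damaged bases for nucleotide excision repair, were higher in pool 2 with 11.9, 36.9 and 6.46 CPM and 15.7, 40.7 and 11.7 CPM, and *wdr76* had 5.76, 25.5 and 4.26 CPM. *ska3*, of the kinetochore, and *gsg1l* shared this pattern. Lower in pool 2 were *sik1*, the gene of a salt-inducible kinase, with 58.7, 11.1 and 29.5 CPM, *cemip*, which breaks down hyaluronan, with 17.5, 3.90 and 11.6 CPM, *ace* and *klf2a*. A list of photolyases and repair genes was drawn up after these values had been seen, so its counts are a description that supports nothing. Of its 12 members 4 were at least 2-fold apart, against 18.7% of all genes. Pool 2 was apart and higher in 3 of the 12, against 0.477% of all genes. These were *xpc* and *ddb2*, whose values had been seen beforehand, and *cry-dash*, of the photolyase family, with 28.3, 75.3 and 44.3 CPM. *ercc2* and *ercc3*, helicases of the same repair pathway, had 28.5, 31.6 and 27.7 CPM and 28.0, 27.2 and 37.0 CPM.

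**Figure D5:**
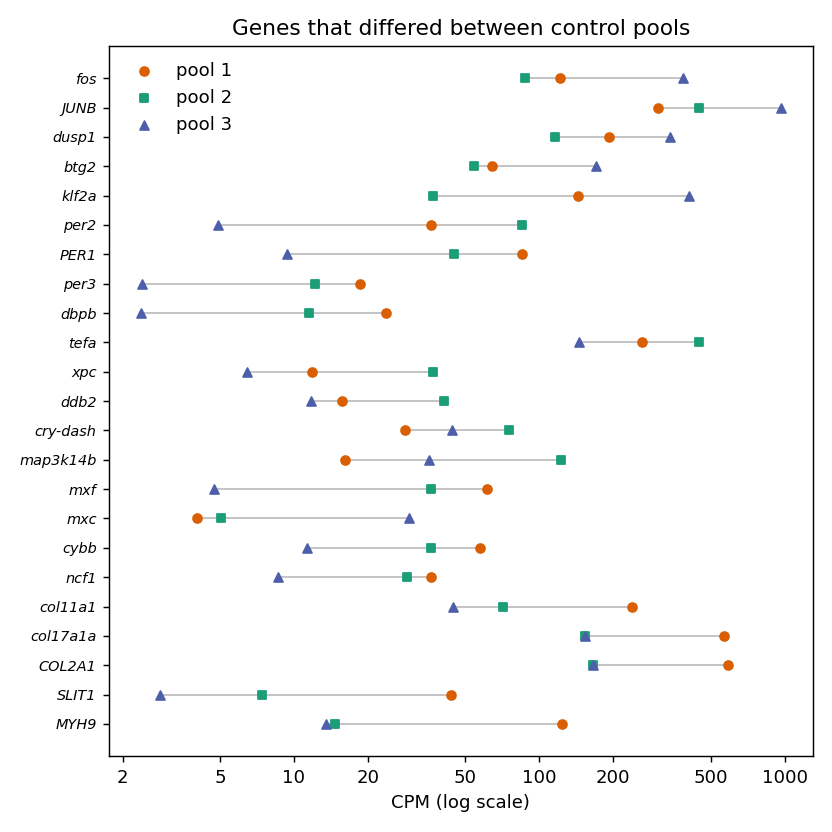
CPM on a log scale in each control pool of genes chosen after their values were seen. Immediate early genes are at the top, then clock, repair, interferon and phagocyte genes, then collagens, with *SLIT1* and *MYH9* at the bottom. For *MYH9* the ID is ENSDARG00000001014, for *COL2A1* ENSDARG00000069093, for *JUNB* ENSDARG00000104773. Pool 3 is the highest for *fos* (384) and the lowest for *per2* (4.91), pool 2 is the highest for *xpc* (36.9), and pool 1 is the highest for *SLIT1* (43.7).

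Phagocyte markers took 0.122%, 0.160% and 0.124% of the counts for macrophages and 0.0447%, 0.0545% and 0.0374% for neutrophils. Pool 2 was the highest in 13 of the 18 macrophage markers with at least 10 CPM, and in 33.4% of all genes. The 3 IDs of *MFAP4* at this level, a marker of zebrafish macrophages, were all higher in pool 2, with 67.9, 125 and 57.9 CPM (ENSDARG00000090783), 55.2, 91.2 and 37.7 CPM (ENSDARG00000088745) and 28.5, 55.2 and 20.1 CPM (ENSDARG00000089667). This name stands for 8 IDs, among which reads may have been split. *MPEG1* (ENSDARG00000055290), a pore-forming protein of macrophages, had 87.0, 103 and 76.3 CPM. *csf1ra*, the receptor of a macrophage growth factor that pigment cells also use, was low in pool 3 with 23.8, 16.7 and 7.67 CPM. Likewise *cybb* and *ncf1*, subunits of the phagocyte oxidase, were low in pool 3 with 57.1, 36.3 and 11.3 CPM and 36.1, 28.8 and 8.60 CPM. The highest marker of each list did not follow. For macrophages *cebpa* was highest in pool 3, with 283, 316 and 492 CPM, and for neutrophils *mmp9* had 165, 229 and 228 CPM. *mmp9* is also on the list of wound epidermis and blastema, so its counts enter both shares. The markers *lgmn*, *lcp1* and *cyba* were highest in pool 2, *lgmn* with 234, 328 and 228 CPM. Of the 18 macrophage markers 5 were at least 2-fold apart and of the 10 neutrophil markers 5, against 18.7% of all genes, and without pool 1 these counts were 5 of 18 and 5 of 9, against 257 of 8739. Pool 3 was apart and lower in 4 of the 10 neutrophil markers, in 3 of 5 markers of yellow pigment cells and in 3 of 8 markers of ion-transporting cells, against 3.65% of all genes. The low markers of yellow pigment cells include *csf1ra*, which is also on the macrophage list.

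The remaining lists were small. Lipid and yolk markers took 1.40%, 2.32% and 2.33% of the counts, nearly all of it from *apoeb* and *rbp4*, the latter with 1809, 1575 and 1295 CPM, and the liver markers *apoa2* and *tfa* had means under 10 CPM. Pigment cells were represented by *TYRP1* with 24.2, 38.5 and 43.8 CPM for its highest ID, *pmela* with 12.16, 22.5 and 26.3 CPM and *gch2* with 184, 171 and 87.1 CPM. The melanocyte markers *TYRP1* and *pmela* were lowest in pool 1 and *gch2*, of yellow pigment cells, in pool 3. Not all markers of yellow pigment cells followed, since *aox5* with 35.7, 26.3 and 36.5 CPM and *bco1* with 25.7, 27.2 and 28.5 CPM were highest in pool 3. Red blood cells were represented by *hbae3*, an embryonic globin, with 86.5, 52.0 and 49.9 CPM. Nervous system markers reached 10 CPM in 4 of 31 genes and endothelial markers in 4 of 23, against 9232 of all 32057 genes. None of these markers was 2-fold apart, against 18.7% of all genes at this level.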

How the data were processed

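Total RNA from pooled fins was reverse transcribed with SMARTScribe, amplified, fragmented and sequenced in paired ends. The authors deposited whole-number counts per gene, without normalization. Neither label nor paper names the aligner or the counting tool (not given in the sources used here), and the submitters' processing notes name the build mm10 although all IDs are of zebrafish. The table has 6 columns, all assigned to a sample, and the 3 control columns were read. A name table gave symbols to 28988 IDs. Names in capitals that stand for several IDs are printed with an ID or as the highest one. CPM, ranks and ratios were computed in Python 3.11.15 with pandas 2.3.3, and dispersion in R 4.3.3 with edgeR 4.0.16 (intercept only, TMM, filterByExpr) and size factors with DESeq2 1.42.0. The pseudocount was 0.5 CPM and the minimum a mean of 10 CPM. The computations of the ratio and of the dispersion were run on simulated data. For the ratio the simulated spread between pools was smaller than that of these data. That run therefore bears on the computation only and not on how the 2-fold rule behaves here. The genes named were the 30 highest, the 10 most variable for each pool and those on the list of genes the study named. From each list the 4 highest and the 2 most variable members were to be named, but not all of these are printed. Other list members were picked after their values were seen. The members and the 48 lists were chosen with earlier results of these data known, and 3 further lists after their values were seen. List names without a match were looked up by their stem in capitals, a rule set after the name table was seen, and 8 names caught only by a prefix were removed. No sequence or transcript length was used.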

Additional observations from a re-analysis of the deposited data

How the results depend on the processing

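No paired analysis was possible because the control pools form a single group and share no replicate number with another group. The share of the 100 highest genes stayed within 1 SD under each alternative run and lay between 34.7% and 37.0% with 1 pool left out, and the number of genes at 1 CPM stayed within 1.5 times. The number of genes at least 2-fold apart was 1476 with TMM, 1500 with DESeq2 size factors and 1770 with a pseudocount of 0.1 CPM. It was 4702 of 16197 with a minimum of 1 CPM, 312 of 3230 with 50 CPM, 6011 with no minimum and 938 of 7059 with the trend with gene span removed, all of which change the number of genes entering. With 1 pool left out it ran from 257 (without pool 1) to 1587, and it was 1042 without pool 3. Genes set apart by pool 1 numbered 2994 with a minimum of 1 CPM and 208 with 50 CPM. With DESeq2 size factors pool 1 was apart in 1022 genes, higher in 704 and lower in 318. The common biological coefficient of variation, the spread in excess of counting error, was 0.36 over 18058 genes, 0.51 with no filter, 0.30 at 10 CPM or more, and between 0.28 (without pool 1) and 0.41 with 1 pool left out. The highest and lowest pools of a list were the same under TMM for 25 of 51 lists, the fin fold mesenchyme, collagen, notochord, muscle and macrophage lists among them. The alternatives per kilobase of transcript or coding length were not run, since no such length was used here. A depth of 3 counts, 0.0192 CPM over the pools, limits what can be called absent.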

Other observations

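Under scaling by TMM the highest or lowest pool changed for 26 lists, among them the keratins, the pan-epidermal and superficial epidermal markers, translation factors and immediate early genes, for which pool 1 became the lowest. The 10 genes with the widest ratio for pool 2 stayed at least 3.08-fold apart under TMM, and those for pool 3 at least 6.58-fold.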
